A study of Mus musculus with 24 samples.

Results

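The replication-dependent histone genes were taken as every row of the deposited count table whose mouse symbol begins with Hist1h, Hist2h, Hist3h or Hist4h. This gave 68 of 24015 genes: 6 for the linker histone H1, 18 for H2A, 19 for H2B, 12 for H3 and 13 for H4. Among the H2B rows, Hist3h2bb-ps is annotated as a processed pseudogene. Whether each member is tied to replication was not checked. In the GENCODE M21 annotation (build GRCm38), 54 of them lay on chromosome 13, 10 on chromosome 3, 3 on chromosome 11 and 1 on chromosome 6. Livers came from female B6C3F1 mice aged 5 to 6 weeks at purchase, gavaged daily for 21 days with corn oil that held either furan (8 mg/kg body weight) or nothing further, and tissue was taken 4 h after the last dose. Furan is a small volatile ring ether that the liver converts to a reactive dialdehyde. Each liver was split into a snap-frozen piece, a piece fixed in formalin for 18 h and a piece fixed for 3 wk, and the fixed pieces were embedded in paraffin (FFPE). The comparisons use 3 control livers (animals 2, 4 and 6) and 3 furan livers (41, 43 and 44) for frozen tissue, and 4 control (2, 3, 4 and 6) and 4 furan livers (41, 42, 43 and 44) for each FFPE time. RNA was prepared from roughly 100 mg of each frozen piece, from 1 section of 10 micrometres at 18 h and from 2 such sections at 3 wk. A different kit was used for FFPE tissue. The RNA integrity number, a measure of how intact the RNA is, was given as 8.9 or above for frozen and 1.3 to 2.4 for FFPE tissue. Preservation, RNA integrity, extraction kit and input therefore cannot be told apart. All libraries were selected on oligo(dT), which captures poly(A) tails, and the kit used does not mark the strand. The comparisons ask which of these genes differ between kinds of piece, and whether their response to furan in frozen liver is also seen in fixed liver.

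Replication-dependent histone genes supply the proteins that package newly copied DNA, and in dividing cells they are transcribed mainly in S phase. Their mRNAs typically end, without a poly(A) tail, just after a conserved stem-loop that is bound by the stem-loop binding protein, SLBP, and cut with the help of the U7 small nuclear RNA and cleavage factors. Some members also make a longer, polyadenylated transcript, mostly in cells that have left the cycle. Adult liver cells divide rarely, and a poly(A)-selected library recovers an mRNA that ends at the stem-loop poorly.

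The stem-loop was searched on the transcript strand of the annotated transcripts as 16 letters: a stem of 6 paired bases (G:T pairs allowed) that opens with GG, closes with CC and has T and A next to a loop of 4. Searched over whole transcripts, it was found in 46 of the 68 members. Of 58797 annotated coding transcripts, 0.131% held a match with at most 100 nt after it, a narrower search counted by transcript and not by gene. In 22 members every annotated transcript stopped within 100 nt after the stem-loop (3 to 74 nt after, at lengths from 391 to 630 nt, median 483.5). In 24 a match was found but not every transcript stopped so, and in 22 no annotated transcript held a match. Of the 24, Hist1h2bp had a transcript that ended 38 nt after its match and a longer one without a match. Among those without a match are short annotations, such as Hist1h4k (312 nt), Hist1h2bl (381 nt) and Hist1h3h (411 nt). A stem-loop beyond an annotated end could not be found, so a missing match does not show that a gene lacks one. The most frequent form was shared by 26 members and the next by 7. The members on which the results turn, with 5 bases on each side, the stem in capitals and the loop in lower case, read as follows in DNA letters, 5′ to 3′, in GENCODE M21. The H1 and H2A members listed carry the most frequent form, and the H4 members carry other stem letters.
Hist1h1c: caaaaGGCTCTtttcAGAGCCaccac
Hist3h2a: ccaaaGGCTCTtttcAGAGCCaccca
Hist1h1e: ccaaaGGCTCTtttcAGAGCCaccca
Hist1h4h: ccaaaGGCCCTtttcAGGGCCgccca
Hist1h4c: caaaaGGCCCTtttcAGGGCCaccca
Hist1h4d: ccaaaGGCCCTtttcAGGGCCactac
Hist4h4: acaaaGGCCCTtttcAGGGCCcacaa
Hist1h4i: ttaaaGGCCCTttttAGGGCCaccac
Of these, only Hist1h4h ended just after the stem-loop (46 nt on, in a transcript of 470 nt). The annotated transcripts ran 840 nt past it in Hist1h1c, 1643 nt in Hist3h2a, 1153 nt in Hist1h1e, 454 nt in Hist1h4c, 770 nt in Hist1h4d, 2445 nt in Hist4h4 and 330 nt in Hist1h4i. Hist1h2bc and Hist2h2be, the H2B genes with the most counts, had no match in their annotated transcripts. The Hist1h2bc transcript is spliced from 2 exons and is 1156 nt long (chromosome 13, 23684199 to 23692908, plus strand, GRCm38), and Hist2h2be is 2620 nt long (chromosome 3, 96221119 to 96223738, plus strand). A poly(A) signal, AATAAA or ATTAAA, stood in the last 40 nt of a transcript of 16 members, among them Hist1h1c (chromosome 13, 23738808 to 23740367, plus strand), Hist2h2be, Hist3h2a, Hist1h4i, Hist4h4 and Hist1h4h, but not Hist1h2bc. Of all coding transcripts, 48.7% had one there. These matches describe the annotation, not the RNA that was sequenced.

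Library totals were 33101755 to 58048387 counts in frozen, 16269854 to 22494012 in FFPE 18 h and 3666173 to 11780691 in FFPE 3 wk tissue. Rn45s, the ribosomal RNA precursor, which has no poly(A) tail, took 0.129% to 0.520% of the counts in frozen, 6.42% to 37.3% in FFPE 18 h and 4.85% to 13.2% in FFPE 3 wk libraries, and the 37.3% belonged to the control animal 6 at 18 h. The hepatocyte markers Alb, Apoa1, Ttr, Apoc3 and Fgb summed to 122648 to 133609 CPM in frozen, 109931 to 133879 CPM in FFPE 18 h and 69036 to 83939 CPM in FFPE 3 wk libraries, the last without overlap with the others, and the part of this in the members' values was not tested. CPM are counts per 1000000 counts of a library, here scaled by TMM, a normalization that evens out differences in composition. Sums over members are given as raw CPM, with no TMM factor, so that they are shares of the library total. The 5 T cell markers, cells that can divide, summed to 1.70 to 3.31 CPM in frozen, 4.19 to 7.17 CPM in FFPE 18 h and 0 to 12.6 CPM in FFPE 3 wk libraries.

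The counts of the 68 genes were very unequal. Hist1h2bc, 1 of the 19 H2B genes, held 27294 of the 36826 counts summed over all members and libraries (74.1%). Hist1h1c, a linker histone H1 gene, held 4337 (11.8%), Hist2h2be, an H2B gene, 1699 (4.61%) and Hist3h2a, an H2A gene, 725 (1.97%). The next were Hist1h1e with 437 and Hist1h4i with 384 counts. At the other end, 9 members had 0 counts in all 22 libraries, 32 had 10 or fewer in all, and 55 had fewer than 100. A median of 51.89% of a member's 50-nt words occurred in transcripts of another gene, 34 members shared more than 50% and 5 all of them, so counts can move between copies or be lost where reads match several places. How such reads were handled is not given in the sources used here. For the genes with the most counts the shared portion was 30.6% in Hist1h2bc (mostly with Hist1h2bg), 8.54% in Hist1h1c, 0% in Hist2h2be and 31.5% in Hist3h2a, which overlaps Trim17.

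The 68 genes took a larger portion of the counts in fixed than in frozen liver. Nearly all of that net difference was Hist1h2bc, while among the others Hist1h1c fell and further members rose. Over the 8 members with under 10% of their words shared, which leave out Hist1h2bc, the sum went the opposite way at 18 h. It was 0.536 times the frozen mean in controls and 0.336 times in furan livers, each lower without overlap. Much of this sum was Hist1h1c, which fell, with 1190 of 1661 counts in frozen controls and 91 of 417 at 18 h. In furan livers Hist1h1c held 2566 of 2884 and 197 of 547. In frozen control livers the members summed to 37.7, 35.9 and 27.1 raw CPM (animals 2, 4 and 6), and in frozen furan livers to 46.3, 51.8 and 53.7 (animals 41, 43 and 44). In FFPE 18 h tissue they summed to 127, 135, 112 and 62.4 in controls (animals 2, 3, 4 and 6) and to 132, 127, 150 and 138 in furan livers (animals 41 to 44). In FFPE 3 wk tissue the sums were 109, 137, 64.6 and 116 in controls and 112, 125, 136 and 113 in furan livers. Every FFPE library thus lay above every frozen one, at 3.25 times the frozen mean for controls and 2.70 times for furan at 18 h, and 3.18 and 2.40 times at 3 wk. Frozen furan livers lay above frozen controls without overlap (1.51 times the mean), while in both FFPE sets the treatments overlapped. Without Hist1h2bc, the 67 other members summed to 10.9 to 15.99 raw CPM in frozen and 13.1 to 18.1 in FFPE 18 h controls, a ratio of means of 1.04 with overlapping groups. In furan livers the same sum was lower at 18 h (12.6 to 18.5 raw CPM) than in frozen tissue (23.8 to 29.2), without overlap, at 0.588 times the mean. Both sums join a fall of Hist1h1c to rises of other members. Hist1h1c held 1190 of the 2078 counts in frozen controls and 91 of 1008 at 18 h. In furan livers it held 2566 of 3434 and 197 of 1160. At 18 h, H4 was 7.20 (controls) and 2.55 (furan) times the frozen mean. H2B without Hist1h2bc was 1.38 and 1.95 times, and H2A overlapped. Hist1h2bc made up 58.3% of the members' counts in frozen control and 47.7% in frozen furan livers, 86.9% and 88.7% at 18 h, and 80.1% and 70.0% at 3 wk. In whole tissue, a change in the number of cells of a type and a change in RNA per cell cannot be told apart. These sums carry no test, since a sum over chosen members is a description.

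**Figure D1:**
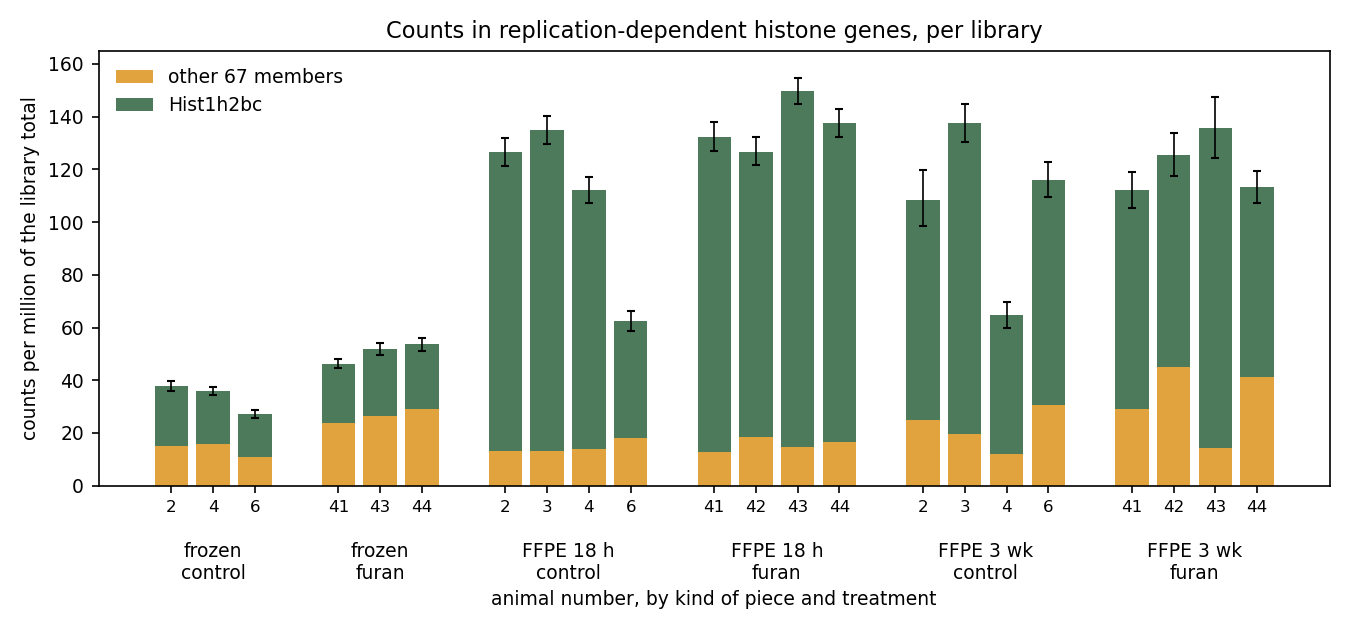
Raw CPM (counts per 1000000 of the library total; vertical axis) in each of the 22 libraries (horizontal axis, by animal number), split into Hist1h2bc (green) and the other 67 members (yellow), with 95% Wilson intervals of the whole sum that cover counting error only. The green part grows in every FFPE library, while the yellow part of FFPE 18 h controls (13.1 to 18.1) overlaps that of frozen controls (10.9 to 15.99). The yellow part holds Hist1h1c, which fell, together with members that rose.

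Hist1h2bc, which encodes a common form of core histone H2B, was higher in every fixed piece than in any frozen piece. Its levels were 23.6, 19.8 and 16.8 CPM in frozen controls (animals 2, 4 and 6) and 22.3, 24.0 and 22.8 CPM in frozen furan livers. At 18 h they were 121, 130, 100 and 71.9 CPM in controls and 127, 123, 138 and 124 CPM in furan livers, and at 3 wk 72.6, 111, 48.4 and 82.9 CPM in controls and 71.4, 72.0, 108 and 62.7 CPM in furan livers. The lowest FFPE value, that of control animal 4 at 3 wk, was still above the highest frozen value. Within an animal, the 18 h piece held 4.29 to 5.77 times the level of the frozen piece (6 of 6 animals) and the 3 wk piece 2.44 to 4.95 times (6 of 6). Fitted with edgeR's quasi-likelihood test over all genes, the log2 fold change of FFPE 18 h against frozen was 2.52 ± 0.21 (SE; 5.72-fold, adjusted p = 3.8e-06) in controls and 2.58 ± 0.08 (5.97-fold, adjusted p = 1.2e-10) in furan livers. At 3 wk it was 2.04 ± 0.29 (adjusted p = 9.6e-04) and 1.83 ± 0.18 (adjusted p = 1.3e-05). Between the fixed times, Hist1h2bc was lower at 3 wk in furan livers (-0.77 ± 0.15, adjusted p = 0.0011), and the difference in controls, -0.47 ± 0.24, did not pass (adjusted p = 0.28). Per kilobase of annotated transcript, the mean level in frozen controls was 17.4 CPM per kb for Hist1h2bc, 5.27 for Hist1h1c, 1.16 for Hist2h2be and 0.759 for Hist3h2a. Rn45s was higher in the same libraries (by 7.06 ± 1.01 on the log2 scale in FFPE 18 h controls, adjusted p = 1.5e-04), and its part in the rise of Hist1h2bc was not tested.

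These calls stand against a background in which most genes differed between kinds of piece. Of the genes tested, 68% were called at an adjusted p under 0.05 between FFPE 18 h and frozen controls (34.2% higher, 33.8% lower), and 73% in furan livers (36.8% higher, 36.2% lower). For 3 wk against frozen the portion was 26.2% in controls (13.2% higher, 13% lower) and 45.3% in furan livers (22.4% higher, 22.9% lower). For 3 wk against 18 h it was 10.6% in controls (4.27% higher, 6.28% lower) and 33% in furan livers (15.6% higher, 17.5% lower). Of the members, 8 could be tested at 18 h against frozen in controls (5 higher, 1 lower) and 7 in furan livers (4 higher, 1 lower). At 3 wk against frozen 5 were tested in controls (2 higher, 0 lower) and 7 in furan livers (4 higher, 1 lower). At 3 wk against 18 h 7 were tested in controls, of which 0 were called by edgeR, also 0 at an unadjusted p under 0.05 and 1 (Hist1h4d, lower) with DESeq2, and 8 in furan livers (1 higher, 1 lower). Members enter a fit only where enough libraries hold counts, and one that is high in 1 group alone had to differ to be tested, so these counts do not describe all 68. In 1 model of all 6 groups, which shares the wider spread of the 3 wk libraries, the 18 h calls of Hist1h4h (adjusted p = 0.052 in controls and 0.066 in furan livers), Hist2h2be (0.14) and Hist1h1e (0.15) and the 3 wk call of Hist1h1c in furan livers (0.071) missed the threshold. Markers of every cell type listed were also called higher in FFPE 18 h controls. These were 2 of 3 T cell and 2 of 2 B cell markers tested, from lists of 5 and 4. Of 5 hepatocyte markers 3 were higher and 1 lower, and of 5 Kupffer cell markers 1 was higher. Of 4 sinusoidal endothelial markers 1 was higher and 2 lower, and of 4 stellate markers 1 higher and 3 lower. The 1 erythroid marker tested was higher. The part of these markers' cells in the members' levels was not tested.

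Hist1h1c, which encodes the linker histone H1.2, moved the opposite way. It stood at 9.59, 9.72 and 5.35 CPM in frozen controls (animals 2, 4 and 6) and at 18.0, 18.9 and 19.9 CPM in frozen furan livers (animals 41, 43 and 44). At 18 h it was 1.45, 1.16, 1.44 and 2.29 CPM in controls and 2.74, 3.26, 1.41 and 4.17 CPM in furan livers. At 3 wk it was 2.60, 0, 4.202 and 0.197 CPM in controls and 3.25, 8.36, 4.13 and 8.15 CPM in furan livers. Every fixed piece was thus below the frozen pieces of its treatment. Within an animal the 18 h piece held 0.0748 to 0.429 of the frozen level, and the 3 wk piece 0.0369 to 0.432. Hist1h1c fell by 2.29 ± 0.29 on the log2 scale at 18 h in controls (edgeR, adjusted p = 6.2e-05) and by 2.63 ± 0.24 in furan livers (adjusted p = 1.1e-06). At 3 wk it fell by 1.57 ± 0.32 in furan livers (adjusted p = 0.0020), and the difference of -2.16 ± 1.28 in controls did not pass (adjusted p = 0.27). From frozen to fixed tissue it went from 23.9% to 1.19% (18 h) of the members' counts in controls and from 39.0% to 1.93% in furan livers.

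**Figure D2:**
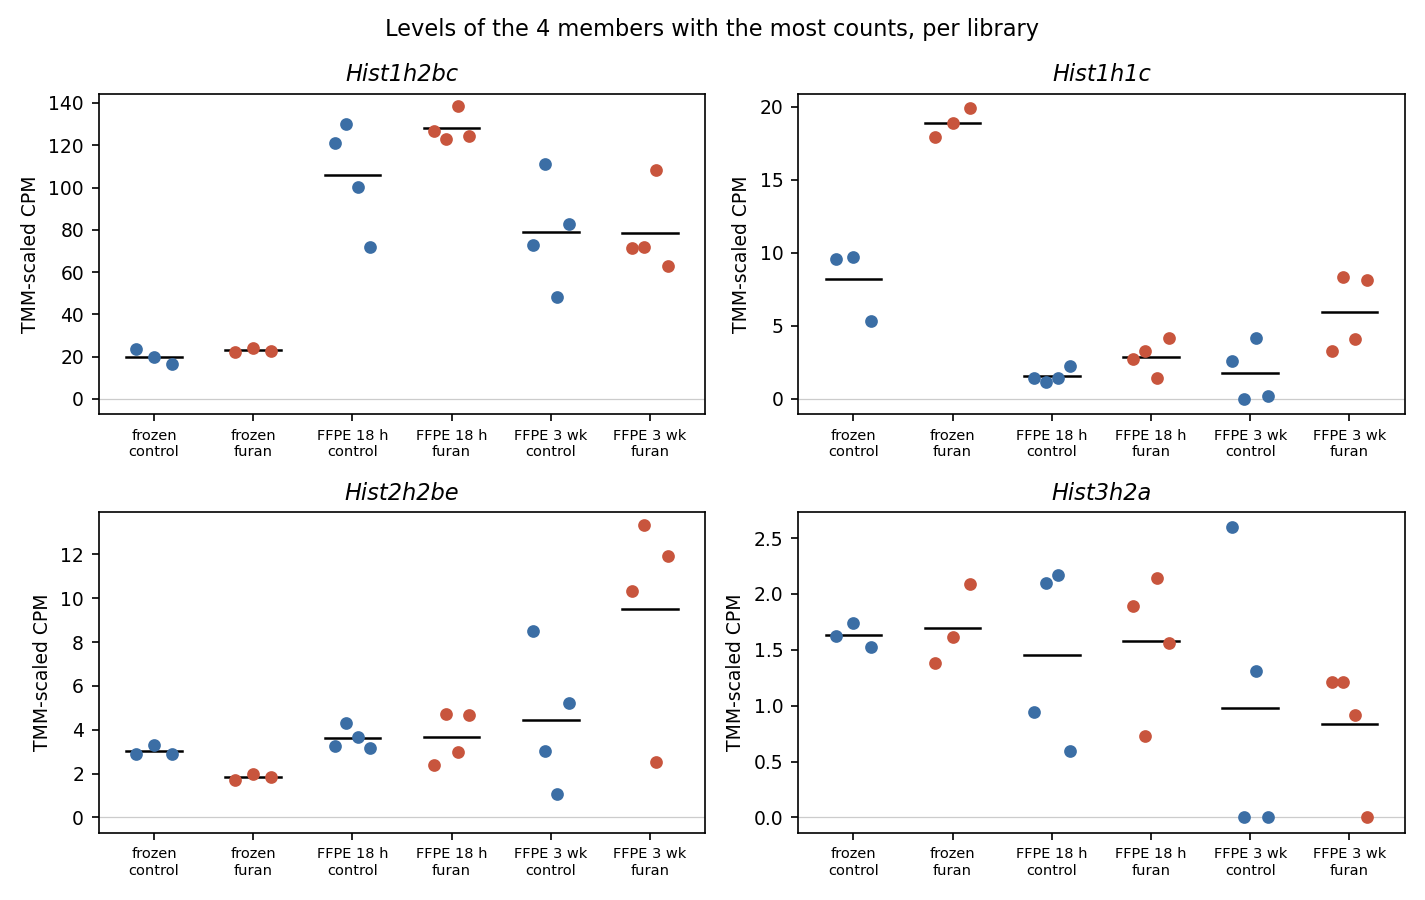
TMM-scaled CPM (vertical axes) of the 4 members with the most counts in each library, by kind of piece and treatment (horizontal axes; blue control, red furan; bars are group means). Hist1h2bc lies between 16.8 and 24.0 CPM in frozen and between 48.4 and 138 CPM in fixed tissue, and within each treatment every fixed piece has less Hist1h1c than every frozen piece.

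Hist2h2be, an H2B gene whose annotated transcript is long and holds no stem-loop match, was lower with furan in frozen tissue. Its levels were 2.92, 3.29 and 2.90 CPM in frozen controls and 1.71, 1.99 and 1.84 CPM in frozen furan livers, without overlap. At 18 h it had 3.27, 4.31, 3.67 and 3.19 CPM in controls and 2.41, 4.72, 2.97 and 4.67 CPM in furan livers. At 3 wk it had 8.52, 3.01, 1.05 and 5.22 CPM in controls and 10.3, 13.3, 2.52 and 11.9 CPM in furan livers. In furan livers it rose from frozen tissue by 1.10 ± 0.26 at 18 h (edgeR, adjusted p = 0.0024) and by 2.47 ± 0.49 at 3 wk (adjusted p = 0.0017), and from 18 h to 3 wk by 1.34 ± 0.42 (adjusted p = 0.024). In controls the differences were 0.37 ± 0.20 at 18 h (adjusted p = 0.12) and 0.61 ± 0.83 at 3 wk (adjusted p = 0.66). The difference between the treatments in these preservation effects did not pass (0.74 ± 0.32 at 18 h and 1.89 ± 0.94 at 3 wk, edgeR, adjusted p = 1.00 for each). The furan rise from 18 h to 3 wk missed the threshold without the 18 h library of animal 41 or 43 and without the 3 wk library of animal 41, 42 or 44 (adjusted p from 0.059 to 0.080 over these and the fit of all 6 groups). Hist3h2a, an H2A gene, had 1.62, 1.74 and 1.53 CPM in frozen controls and 0.943, 2.10, 2.17 and 0.598 CPM in FFPE 18 h controls. Those groups overlapped, and the log2 difference was 0.00 ± 0.42 (adjusted p = 0.99); in furan livers it was 0.03 ± 0.33 (adjusted p = 0.95).

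The 4 H4 genes Hist4h4, Hist1h4c, Hist1h4d and Hist1h4h, and Hist1h1e, a further linker histone gene, were close to 0 in frozen liver and had more counts in fixed liver, though on few reads. Hist4h4 had 1, 0 and 0 counts in frozen controls and 14, 4, 17 and 21 counts at 18 h, from smaller libraries. The ratio of its pooled counts per library total was 120, with a 95% counting interval from 20.7 to 4834. Hist1h4c had 0, 0 and 1 counts in frozen controls and 13, 15, 8 and 23 at 18 h, a ratio of 127 (21.9 to 5088). Hist1h4d had 1 count in each frozen control and 17, 6, 15 and 31 at 18 h, a ratio of 49.4 (16.2 to 245). These 5 genes had too few counts to be tested within frozen liver and passed the low-count filter only through the FFPE libraries, so a gene among them had to differ to be tested. Their calls are therefore descriptions that add nothing to the counts; edgeR's adjusted p at 18 h in controls was 3.2e-04 for Hist4h4, 1.3e-04 for Hist1h4c and 3.1e-04 for Hist1h4d. Hist1h4h, the only one of these whose annotated transcript stops just after the stem-loop, had 4, 8 and 7 counts in frozen controls and 11, 22, 6 and 24 at 18 h. The fitted log2 difference was 3.18 ± 0.66 (adjusted p = 0.0017). In furan livers Hist1h4h had 9, 6 and 3 counts in frozen tissue and 14, 33, 10 and 8 at 18 h, a fitted difference of 2.96 ± 0.65 (adjusted p = 0.0014). Hist1h4d had 1, 1 and 0 counts in frozen furan livers and 6, 16, 15 and 4 at 18 h, a ratio of 36.4 (9.45 to 310), and 7, 24, 5 and 44 at 3 wk, a ratio of 163 (43.7 to 1370; adjusted p = 6.1e-04). At 3 wk these genes were present in some libraries and absent in others. Hist4h4 had 5, 0, 11 and 53 counts in controls, the frozen group had 1, and the call (adjusted p = 0.038) was lost without any 1 of the 3 frozen libraries (0.12 to 0.18) and with the animal as a block (0.084). Hist1h4c had 2, 24, 0 and 0 counts, and Hist1h4d had 0, 0, 0 and 1. Hist1h1e had 7, 4 and 2 counts in frozen controls but 7, 6, 16 and 63 at 18 h and 2, 17, 8 and 129 at 3 wk, with animal 6 far above the other 3 at each time. In furan livers Hist1h1e had 0, 10 and 9 counts in frozen tissue, 13, 16, 21 and 11 at 18 h and 19, 68, 5 and 4 at 3 wk. The fitted differences from frozen tissue were 2.62 ± 0.70 at 18 h (adjusted p = 0.0051) and 4.22 ± 1.36 at 3 wk (adjusted p = 0.026), and the latter missed the threshold without any 1 of the frozen libraries of animals 41, 43 and 44 (adjusted p from 0.065 to 0.076). Hist1h1e overlaps Hist1h2be on the same strand, whose counts at 3 wk were 0, 65, 0 and 0 in controls. Hist2h2bb, an H2B gene, had 1 count in each frozen control and 4, 11, 8 and 15 at 18 h, but all its 50-nt words are shared with Gm20628 on the opposite strand, so the gene that gave these counts is uncertain.

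**Figure D3:**
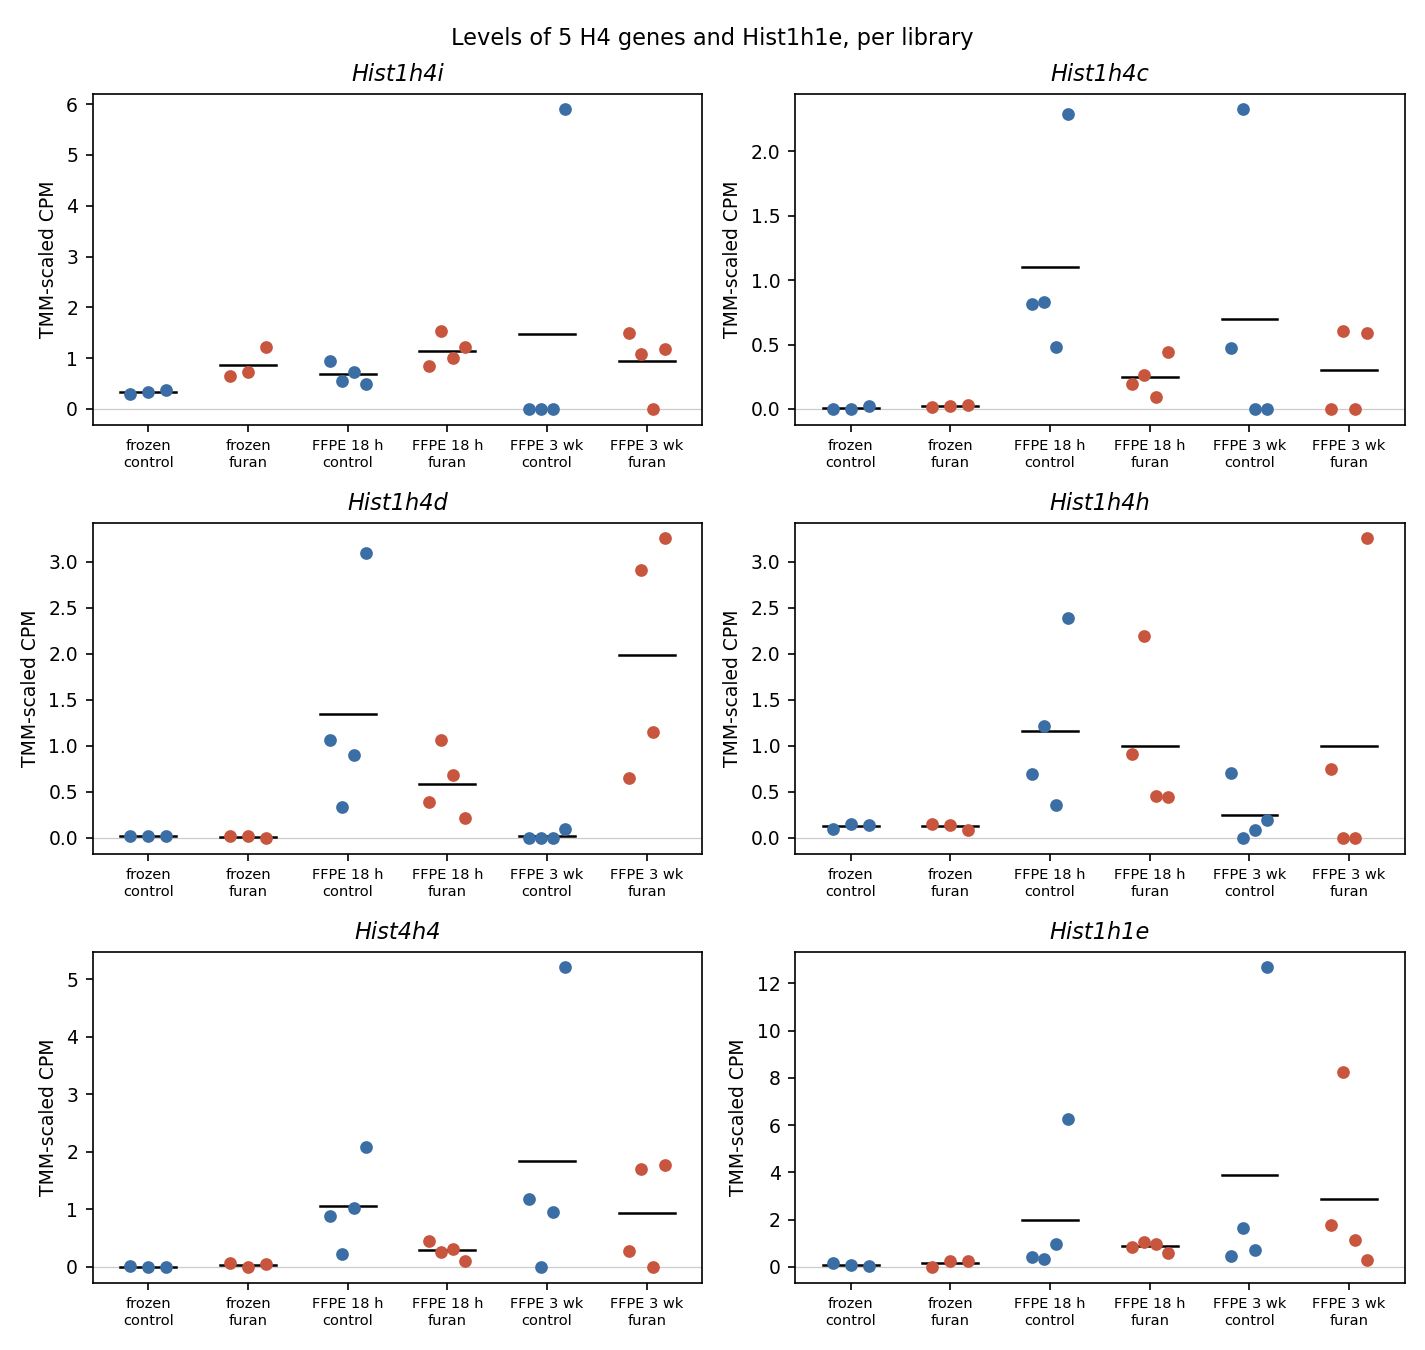
TMM-scaled CPM (vertical axes) of 5 H4 genes and Hist1h1e in each library, by kind of piece and treatment (horizontal axes; blue control, red furan; bars are group means). Frozen libraries lie near 0 except for Hist1h4i, and in FFPE 3 wk tissue single libraries, such as control animal 6 at 12.7 CPM for Hist1h1e, set the group mean.

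Summed by histone class, H4 was higher in FFPE 18 h than in frozen liver of each treatment. The 13 H4 genes gave 0.534, 0.640 and 0.871 raw CPM in frozen controls and 4.88, 3.73, 3.83 and 7.19 at 18 h, 7.20 times the mean. In furan livers they gave 1.33, 1.30 and 1.96 in frozen tissue and 3.26, 6.09, 3.201 and 3.09 at 18 h, 2.55 times the mean, again without overlap. The 6 H1 genes went the other way in furan livers (0.218 times, without overlap) and overlapped in controls (0.385 times). The 18 H2A genes overlapped in each treatment (0.974 and 0.972 times). The 12 H3 genes held 10 counts in all frozen controls together and 19 in all FFPE 18 h controls, at 4.03 times the mean share without overlap. H2B without Hist1h2bc was 1.38 times as high at 18 h in controls and 1.95 times in furan livers, without overlap in each.

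The 22 members whose annotated transcripts all stop at the stem-loop were a very small part of the counts but a larger one in fixed tissue. Each shared at least 39.5% of its 50-nt words with another gene, so reads of other copies can enter these counts. Hist1h4h alone, with 45.8% shared, held 19 of 40 counts in frozen controls and 63 of 118 at 18 h. In furan livers it held 18 of 57 and 65 of 146. They had 13, 11 and 16 counts in frozen controls (0.289, 0.213 and 0.303 raw CPM) and 34, 32, 14 and 38 at 18 h (2.00, 1.66, 0.825 and 2.33 raw CPM), 6.35 times the mean. In furan livers they had 24, 21 and 12 counts in frozen tissue and 23, 61, 41 and 21 at 18 h, 4.61 times the mean share. In controls, 12 of the 22 were higher at 18 h in summed share of counts, 0 were lower and 10 were at 0 in both. In furan livers 12 were higher, 4 lower and 6 at 0 in both. No such count over all genes is given here, so these directions are a description. At 3 wk the control libraries held only 4, 2, 9 and 2 counts of these members and overlapped the frozen ones. The furan libraries held 11, 5, 3 and 89 counts at 3 wk and lay above the frozen ones without overlap, at 5.91 times the mean share, with most counts in animal 44. The 24 members with a match whose transcripts do not all stop there were led by Hist1h1c. They gave 0.8287 times the frozen mean at 18 h in controls, with overlap, and 0.358 times in furan livers, without overlap. Rn45s, Rpph1 and Rmrp, the 3 genes tested of the list of other RNAs without a poly(A) tail, were all called higher at 18 h in each treatment. Of all genes, 34.2% were called higher there in controls and 36.8% in furan livers. The part of these RNAs in the counts of the stem-loop members was not tested.

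**Figure D4:**
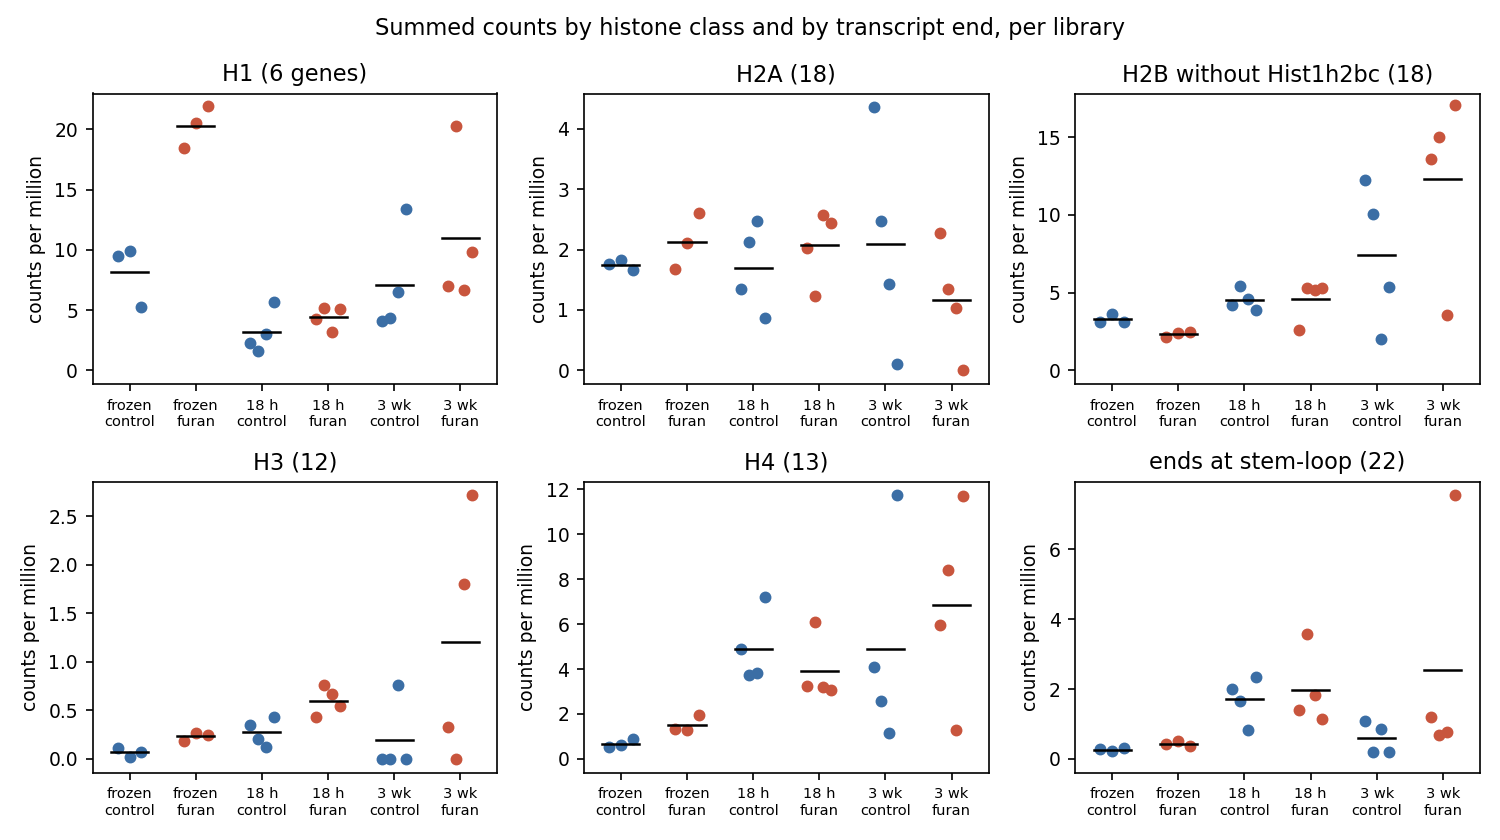
Summed raw CPM (counts per 1000000 of the library total; vertical axes) for each histone class and for the 22 members that end at the stem-loop, in each library by kind of piece and treatment (horizontal axes; blue control, red furan; bars are group means; H2B is drawn without Hist1h2bc). H4 and the stem-loop members are higher in FFPE 18 h than in frozen tissue of each treatment. The group mean of H1 is highest in frozen furan livers (18.5 to 21.96 raw CPM), a range that furan animal 42 at 3 wk (20.3) enters.

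In frozen liver, furan changed 3 of the 5 members that could be tested: Hist1h1c and Hist1h4i rose and Hist2h2be fell. Of all 13794 genes tested, 8.21% were called higher and 7.47% lower (15.7% in all). Hist1h1c rose by 1.22 ± 0.20 on the log2 scale (2.34-fold, edgeR, adjusted p = 0.0089), with every furan liver (18.0 to 19.9 CPM) above every control (5.35 to 9.72 CPM). Hist1h4i, an H4 gene, had 13, 17 and 19 counts in controls (0.301, 0.329 and 0.372 CPM) and 38, 31 and 43 in furan livers (0.649, 0.724 and 1.22 CPM). It rose by 1.35 ± 0.31 (adjusted p = 0.025), but the adjusted p was 0.058 to 0.070 without control animal 2 or 4 or without furan animal 43 or 44. Hist2h2be fell by 0.70 ± 0.14 (adjusted p = 0.015), and missed the threshold without furan animal 41 (0.053) or 44 (0.052). Without furan animal 44, Hist1h1c was the 1 member still called. A fit of all 6 groups, which shares the larger spread of FFPE tissue, called 0 members. Hist1h2bc differed by 0.22 ± 0.12 (adjusted p = 0.26) and Hist3h2a, with 1.38, 1.61 and 2.09 CPM in furan livers, by 0.06 ± 0.19 (adjusted p = 0.85). Hist1h1d, a linker histone gene with 1 count in each control and 9, 9 and 8 in the furan livers, had too few counts for the main filter and was called only when the filter was dropped (log2 fold change 3.09, adjusted p = 0.010). It was singled out after its values were seen.

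By class, the summed raw CPM of frozen furan livers lay above controls without overlap for H1 (2.48 times the mean), H4 (2.25 times) and H3 (3.40 times, on 30 against 10 counts). H2B without Hist1h2bc lay below, at 0.719 times, and H2A overlapped at 1.22 times. The members that end at the stem-loop lay above as well, at 1.60 times the mean, on 12 to 24 counts a furan library and 11 to 16 a control library. The summed level of the sinusoidal endothelial markers Stab2, Lyve1, Clec4g and Kdr was 251 to 253 CPM in frozen controls and 163 to 203 CPM in frozen furan livers. Of the 4, 3 were called lower, against 7.47% of all genes. The part of this lower level in the furan differences was not tested.

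In fixed liver, edgeR's test within each kind of piece called no furan difference of a member. At 18 h, 8 members were tested with edgeR and 0 called, against 8.39% of all genes (3.92% higher, 4.47% lower). Of these, 1, Hist1h1c, had an unadjusted p under 0.05. DESeq2 called 1, Hist1h4c (lower), on 59 counts in controls and 17 in furan livers, a gene that edgeR's filter left out. Hist1h1c differed by 0.90 ± 0.38 (adjusted p = 0.17), with overlapping groups (1.16 to 2.29 CPM in controls and 1.41 to 4.17 CPM in furan livers). Hist1h4i differed by 0.74 ± 0.41 (adjusted p = 0.30) and Hist2h2be by 0.03 ± 0.27 (adjusted p = 0.96). At 3 wk, 7 were tested and 0 called, against 0.821% of all genes (0.298% higher, 0.522% lower). Of these, 0 had an unadjusted p under 0.05. DESeq2 called 1, Hist1h4d (higher), on 1 count in controls and 80 in furan livers, a gene that edgeR's filter left out. With 1 model of all 6 groups, 2 members were called at 3 wk. Hist1h1c differed there by 1.81 ± 1.23 (adjusted p = 0.68). The difference between the furan response in fixed and in frozen tissue was tested directly as an interaction. It was called for 0 of 11 members at 18 h and 0 of 8 at 3 wk, and for 0% of all genes in each. At an unadjusted p under 0.05 there were 2 of 11 members at 18 h, Hist4h4 and Hist2h2be, against 3.31% of all genes, and 1 of 8 at 3 wk, Hist1h4d, against 4.48%. Hist4h4 and Hist1h4d had too few counts to be tested within frozen liver. They entered only through FFPE libraries where they are high, so their values are descriptions. For Hist1h1c the furan response differed by -0.30 ± 0.42 log2 units between 18 h and frozen tissue (edgeR, adjusted p = 1.00). For Hist2h2be it differed by 0.74 ± 0.32 (edgeR, adjusted p = 1.00).

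**Figure D5:**
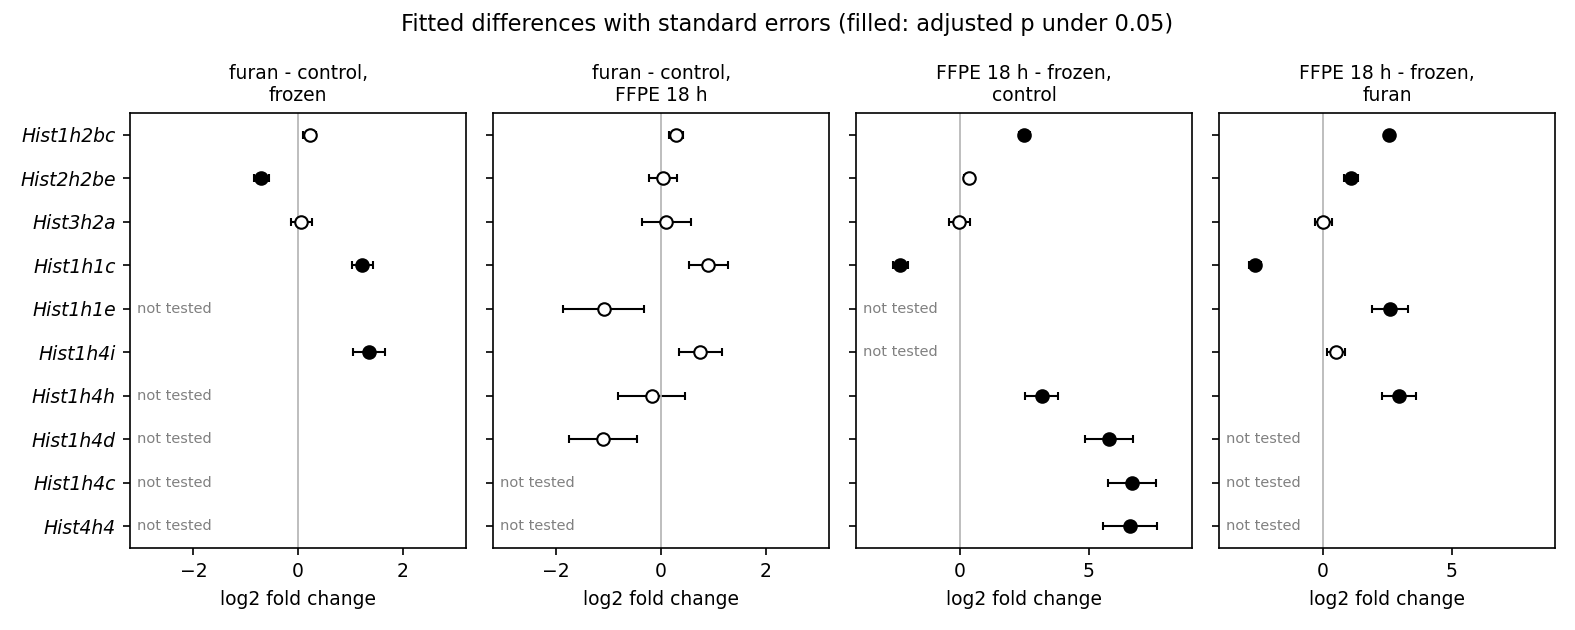
Fitted log2 fold changes with standard errors (horizontal axes) of 10 members (rows) for furan against control in frozen and FFPE 18 h liver, and for FFPE 18 h against frozen liver in each treatment; filled points have an adjusted p under 0.05. Hist1h2bc and Hist1h1c lie on opposite sides of 0 in each preservation comparison, and 3 members are filled for furan in frozen tissue and 0 at 18 h.

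Genes that make, process and load histone mRNA and protein were read from a list of 21. In frozen liver 4 of 21 tested rose with furan and 0 fell, against 8.21% and 7.47% of all genes, with a median log2 fold change of 0.16 against -0.01 for all genes. These were Ncbp1, a cap-binding protein (0.43 ± 0.08, adjusted p = 0.012), Chaf1a, a subunit of the CAF-1 chaperone that loads histones behind the replication fork (0.99 ± 0.20, adjusted p = 0.018), Casp8ap2, a histone locus body protein (0.36 ± 0.10, adjusted p = 0.039), and Npat, the coactivator of histone genes (0.31 ± 0.08, adjusted p = 0.043). Slbp itself differed by 0.07 ± 0.09 (adjusted p = 0.64). Chaf1a and Ncbp1 were also the 2 of 20 called at 18 h (1.46 ± 0.39 and 0.37 ± 0.11, edgeR, adjusted p = 0.036 and 0.0497), against 8.39% of all genes. At 3 wk 0 of 18 were called, against 0.821% of all genes. Between FFPE 18 h and frozen controls, 6 of 20 were higher and 9 lower, near the 68% of all genes called there. Slbp fell by 2.48 ± 0.20 (adjusted p = 3.5e-06), from 10.6 ± 0.685 CPM (SD, n = 3) in frozen controls to 1.72 ± 0.459 CPM (SD, n = 4) at 18 h, without overlap. Lsm10, a protein of the U7 particle, rose by 2.28 ± 0.13 (adjusted p = 3.3e-07).

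The replication-independent histone variants have polyadenylated mRNAs. At 18 h against frozen controls 6 of 9 tested were higher and 1 lower, where 34.2% of all genes were called higher and 33.8% lower. Among the higher were H2afj (2.00 ± 0.09), H2afv (1.92 ± 0.10), Cenpa, the centromeric H3 (1.94 ± 0.16), and H2afz (1.08 ± 0.26), the last at an adjusted p of 0.0040 and the others below it. H2afx, whose gene gives a stem-loop and a polyadenylated form, rose by 2.03 ± 0.15 (adjusted p = 1.8e-06), from 4.12 to 5.28 CPM in frozen to 15.5 to 19.4 CPM in FFPE 18 h controls. With furan in frozen liver, H3f3b, which encodes the H3.3 variant used outside S phase, rose by 0.43 ± 0.06 (adjusted p = 0.0067), and at 18 h by 0.49 ± 0.11 (adjusted p = 0.014). Its levels were 59.6 to 66.5 CPM in frozen controls and 83.2 to 84.5 CPM in frozen furan livers. H2afv fell by 0.38 ± 0.10 in frozen tissue (adjusted p = 0.040), and the 7 other variants tested did not pass.

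Of 26 S phase genes, 8 rose and 2 fell with furan in frozen liver, where 8.21% of all genes rose and 7.47% fell, with a median log2 fold change of 0.35. Cdc6 (2.15 ± 0.45, adjusted p = 0.019) and Mcm2 (1.23 ± 0.22, adjusted p = 0.010), which load and form the replicative helicase, and the cyclin gene Ccna2 (1.32 ± 0.25, adjusted p = 0.014) were among the 8. At 18 h 0 of 25 rose and 2 fell, where 3.92% of all genes rose and 4.47% fell. Among the 2 was Tk1, which makes thymidine monophosphate (-0.97 ± 0.12, edgeR, adjusted p = 4.8e-04). At 3 wk 0 of 21 were called, against 0.821% of all genes.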

How the data were processed

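The submitters' processing notes name CASAVA 1.8.2, STAR 2.3.0, featureCounts 1.4.4 and the build mm9. The handling of reads with several matches is not given in the sources used here. Poly(A)-selected RNA of mouse liver pieces was sequenced. The deposited table holds whole-number counts, not normalized, for 24015 symbols in 24 columns. Of these, 22 matched a labelled sample, and 2 fresh-frozen columns that matched none were not used. Frozen control animal 3 and furan animal 42 were not analysed here. Library totals are sums over all rows.

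Each comparison was fitted on its own groups with edgeR 4.0.16 in R 4.3.3 (filterByExpr, TMM, quasi-likelihood F test on all genes, Benjamini-Hochberg over all tested genes, threshold 0.05), after tests on simulated data. The standard error is the log2 fold change divided by the square root of F. Shares carry 95% Wilson intervals. These intervals reflect counting error alone: PCR copies were not told apart. Transcript features came from GENCODE M21 (GRCm38), not the build of the counts. Livers are separate animals. The members, lists and alternatives were chosen with earlier results of these data known. Members named are the 12 with the highest mean CPM, those called with furan, and the 5 smallest p in each preservation comparison; of each list up to 4 genes with the smallest p, and Slbp. The values of 1 listed gene are not reported here.

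Pieces of 1 number come from 1 liver. Deviations from group means correlated within animals at r from 0.411 to 0.520 for frozen and 18 h pieces, 0.0913 to 0.285 for frozen and 3 wk pieces, and 0.0168 to 0.300 for the fixed pieces. No libraries were duplicates (lowest chi-square per degree of freedom 9.73). Alternatives were DESeq2 1.42.0, RLE scaling, no filter, counts without Rn45s, thinning to 3666173 counts, 1 model of all groups, the animal as a block and leaving out each library. Leaving out the FFPE 3 wk libraries with the fewest counts was chosen after seeing the data.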

Additional observations from a re-analysis of the deposited data

Results flagged for a closer look

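Levels were checked for a library far from the other 3 of its group, relative to the group's range, over 52 groups of 4, and 7 stood apart. For normally distributed values chance gives about 1 in 20 groups, a rate that does not apply to sparse counts: in 5 of the 7 the other 3 libraries were at 0, and 3 of these rest on 1 count. Hist1h1e stood at 6.28 CPM in control animal 6 at FFPE 18 h, where the others had 0.332 to 0.963, and at 12.7 CPM in the same animal at 3 wk, where the others had 0.473 to 1.65. Hist1h4i was at 5.91 CPM in control animal 6 at 3 wk and at 0 in the other 3. Hist1h4d was at 0.0986 CPM in that library, on 1 count, and at 0 in the others. Hist1h2be was at 6.32 CPM in control animal 3 at 3 wk and at 0.121 CPM, on 1 count, in furan animal 42 at 3 wk, each time with 0 in the other 3. Hist2h2bb was at 0.0875 CPM, on 1 count, in control animal 4 at 3 wk. Of the 7, 6 were in FFPE 3 wk libraries, which have the fewest counts, and 4 in pieces of control animal 6. Its 18 h library also held the most Rn45s (37.3% of counts); the part of this in its values was not tested.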

How the results depend on the processing

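Depth limits most members: 55 of 68 had fewer than 100 counts in all. No alternative reversed the direction of a called member. Of the alternative values for the members called, 269 kept and 29 lost the call. Settings in which a called member no longer passed the low-count filter are in neither number. For 3 wk against frozen in furan livers, Hist1h1e thus has 9 settings where Hist1h2bc has 15. The number of members called with furan in frozen liver, 3, became 1 with thinning, 0 in 1 model of all 6 groups, and 1 to 3 with a library left out. With furan at 18 h, 0 became 1 with DESeq2 and 0 to 1 with a library left out (1 without control animal 3). At 3 wk, 0 became 1 with DESeq2 and 2 in 1 model. For 18 h against frozen, the 6 in controls became 12 with DESeq2, 12 without the filter, 2 with thinning and 4 to 9 with a library left out, and the 5 in furan livers became 13, 13, 2 and 5 to 7. For 3 wk against frozen, the 2 in controls became 1 without the filter, 1 with thinning, 5 in 1 model, 1 with the animal as a replicate block and 1 to 3 with a library left out, and the 5 in furan livers became 3 with thinning. For 3 wk against 18 h, the 0 in controls became 1 with DESeq2, 3 in 1 model and 0 to 1 with a library left out (1 without the 3 wk piece of animal 6), and the 2 in furan livers became 1 in 1 model and 1 to 2 with a library left out. The block changed no other call of a member that still passed the low-count filter in that fit. Fewer counts or genes enter with thinning, and more genes without the filter; the other causes were not tested. Scaling by total counts in place of TMM moved the median log2 fold change of all genes by -0.29 and -0.24 for 18 h against frozen (controls, furan), by 0.37 and 0.32 for 3 wk against 18 h, and by 0.11 for furan at 18 h. The mean share of counts in members (frozen control and furan 0.00336% and 0.00506%, 18 h 0.0109% and 0.0137%, 3 wk 0.0107% and 0.0122%) became, without Hist1h2bc, 0.00140%, 0.00266%, 0.00146%, 0.00156%, 0.00217% and 0.00325%. Over the 8 members with under 10% shared words it was 0.00112%, 0.00222%, 0.000599%, 0.000745%, 0.00102% and 0.00204%. With Rn45s out of the total it was, in the same order, 0.00336%, 0.00507%, 0.0125%, 0.0153%, 0.0115% and 0.0135%.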
